A study of Saccharomyces cerevisiae with 10 samples.

Results

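The transcripts of 10 budding yeast genes that build, load, lock and open the cohesin ring were followed in mutants of the SCF ubiquitin ligase. The genes were taken by name from a list of sister-chromatid cohesion genes: MCD1 (YDL003W), SMC1 (YFL008W), SMC3 (YJL074C), IRR1 (YIL026C), SCC2 (YDR180W), SCC4 (YER147C), ECO1 (YFR027W), PDS5 (YMR076C), PDS1 (YDR113C) and ESP1 (YGR098C). Each was measured by 1 probe set, and together they are 10 of the 5449 named genes on the array.

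Cohesin is a ring that holds sister chromatids together from S phase until anaphase. Its Smc1 and Smc3 arms are closed by the kleisin Mcd1 (also called Scc1) and bound by Irr1 (Scc3). Scc2 and Scc4 load the ring onto chromosomes, Eco1 acetylates Smc3 to make cohesion last, and Pds5 stays on the ring to maintain it. At anaphase the APC with Cdc20 destroys the securin Pds1, which frees the separase Esp1 to cut Mcd1. The MCD1 transcript is known to be periodic and to peak around the G1/S transition, and the Eco1 protein is a known target of the SCF with Cdc4.

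The 5 strains carried cdc53-1 (strain py175), cdc34-3 (py24), cdc4-3 (py187), skp1-11 (W303) or skp1-25 (py1374), which are temperature-sensitive alleles of the cullin, the ubiquitin-conjugating enzyme, an F-box protein and the adaptor (2 alleles) of the SCF. Every strain gave 1 array at room temperature (RT, 25 °C) and 1 array after 1 h at 35 °C, all in YPDA, a rich medium with adenine. A strain in which all SCF genes are intact was not analysed here, so warming and loss of the mutated product cannot be told apart. The labels name no repeat culture of a strain, so the p-values measure only the spread between strains.

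Levels are log2 signals, and their number of arrays limits the precision. Array medians ran from 10.96 to 11.13. The 6 genes specific to mating type a had a mean level of 7.38 at RT and 7.22 at 35 °C in cdc53-1. In the other 4 strains that mean ran from 10.98 to 12.40. The 4 alpha-specific genes had a mean from 6.63 to 7.39 in each of the 10 arrays. Their single levels differed, with RT means over the 5 strains of 9.99 for SAG1, 6.415 for STE3, 6.05 for MF(ALPHA)2 and 4.64 for MF(ALPHA)1. The part of the a-specific difference in the results on cdc53-1 was not tested. Levels of different genes come from different probes and are not compared with each other.

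At RT the cohesion genes stood close together across the 5 strains, and at 35 °C they spread apart. The SD over the 5 strains at RT lay between 0.076 (MCD1) and 0.170 (ECO1). At 35 °C it lay between 0.172 (SCC2) and 1.04 (MCD1). The SD was larger at 35 °C for 10 of 10 cohesion genes, against 71.1% of all genes. Without cdc53-1 it was larger for 9 of 10, against 63.9% of all genes, with SCC2 the exception (0.175 at RT and 0.100 at 35 °C). The spread at 35 °C had 2 ends: cdc53-1 had the lowest level of the 5 strains for 9 of 10 genes (33.5% of all genes), whereas at RT it had the lowest for 1 of 10, SMC1 (20.4% of all genes).

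**Figure D1:**
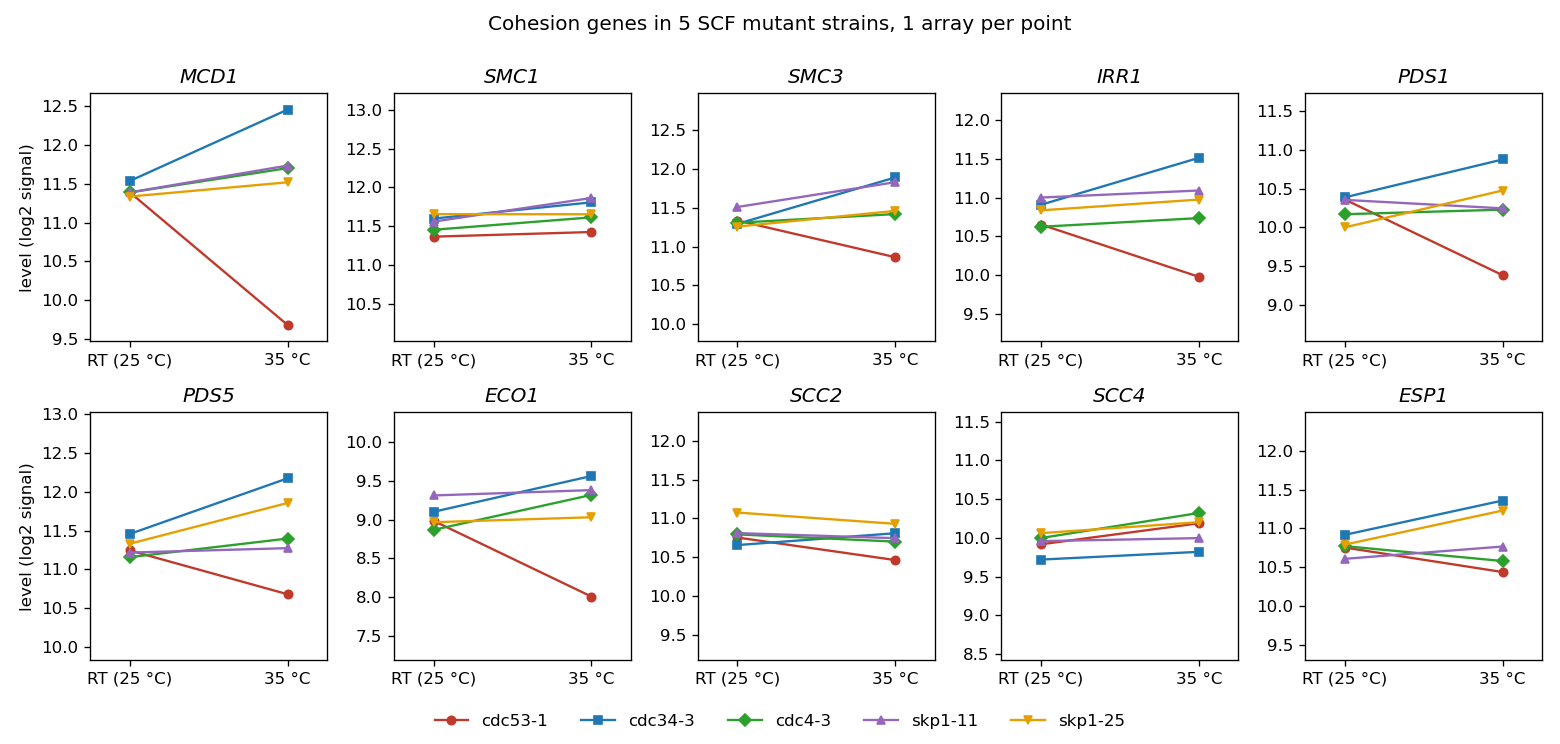
Level (log2 signal, vertical axis) of each of the 10 genes at RT and 35 °C (horizontal axis), with 1 point per array and a line joining the 2 arrays of a strain; every panel spans 3.2 log2 units. For MCD1 the 5 lines start between 11.34 and 11.54 and end between 9.68 and 12.46, with cdc53-1 lowest and cdc34-3 highest.

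The kleisin gene MCD1 varied most. At RT its level was 11.54 in cdc34-3, 11.39 in each of cdc53-1, cdc4-3 and skp1-11, and 11.34 in skp1-25. At 35 °C the cdc34-3 array was at 12.46, skp1-11 at 11.74, cdc4-3 at 11.70, skp1-25 at 11.52 and cdc53-1 at 9.68. The strains were nearly alike before the shift, and after it the cdc53-1 array lay below every RT array while the cdc34-3 array lay above every RT array. The change (35 °C minus RT) was -1.71 in cdc53-1, a 3.28-fold lower signal, and it ranked 15 from the lowest among the changes of 5449 genes in that strain. In cdc34-3 the change was 0.92, a 1.89-fold higher signal, which ranked 277 from the highest. The remaining changes were 0.35 (skp1-11), 0.31 (cdc4-3) and 0.18 (skp1-25).

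The other ring subunits did not all follow MCD1. SMC3, the partner arm, was at 11.34, 11.29, 11.31, 11.51 and 11.26 at RT in cdc53-1, cdc34-3, cdc4-3, skp1-11 and skp1-25, and at 10.86, 11.89, 11.42, 11.83 and 11.46 at 35 °C in the same order. IRR1, the ring-bound subunit, was at 10.65, 10.91, 10.63, 11.00 and 10.84 at RT and at 9.98, 11.51, 10.74, 11.09 and 10.98 at 35 °C in that order. Both genes were lower at 35 °C in cdc53-1 (changes of -0.47 and -0.67) and higher in the other 4 strains as deposited, and cdc34-3 had the highest change of each (0.60 and 0.61). Their smallest positive changes, in cdc4-3 for SMC3 and in skp1-11 for IRR1, were below 0 after either rescaling of the arrays (quantile normalization or median centring).

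SMC1, the other arm, stayed within a narrow range. Its RT levels in the same strain order were 11.37, 11.60, 11.45, 11.56 and 11.66, and its 35 °C levels were 11.43, 11.81, 11.61, 11.86 and 11.65. The change was 0.06 in cdc53-1 and ran from -0.002 to 0.31 in the other strains. In the cdc53-1 pair of arrays the transcripts of the 4 ring subunits had changes of -1.71 for MCD1, -0.67 for IRR1, -0.47 for SMC3 and 0.06 for SMC1.

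The loader genes differed from the ring genes and from each other. SCC2 was at 10.76, 10.66, 10.80, 10.81 and 11.08 at RT in cdc53-1, cdc34-3, cdc4-3, skp1-11 and skp1-25, and at 10.46, 10.81, 10.70, 10.75 and 10.93 at 35 °C. It was lower at 35 °C in 4 of 5 strains, by 0.07 to 0.29 log2 units, and 0.15 higher in cdc34-3. SCC4 was at 9.92, 9.72, 9.998, 9.96 and 10.06 at RT and at 10.19, 9.82, 10.32, 9.997 and 10.20 at 35 °C. It was the only one of the 10 genes that was higher at 35 °C in all 5 strains, and its lowest level at either temperature was in cdc34-3. Its changes were small, from 0.04 in skp1-11 to 0.32 in cdc4-3, and after either rescaling of the arrays the skp1-11 change was below 0 (-0.08 after quantile normalization and -0.07 after median centring).

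ECO1, the acetyltransferase gene, was lower at 35 °C in cdc53-1, as MCD1 was, but by less (changes of -0.98 and -1.71). Its RT levels were 8.99, 9.10, 8.87, 9.31 and 8.97 in cdc53-1, cdc34-3, cdc4-3, skp1-11 and skp1-25. At 35 °C they were 8.01, 9.56, 9.32, 9.38 and 9.03. The cdc53-1 array at 35 °C lay below all other arrays, with a change of -0.98, and both cdc34-3 (0.46) and cdc4-3 (0.45) were higher. In the skp1 strains the changes were 0.07 and 0.06, and the first of these, in skp1-11, turned negative after quantile normalization (-0.10) and median centring (-0.04).

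PDS5, the maintenance gene, was at 11.24, 11.46, 11.16, 11.22 and 11.33 at RT in the same order, and at 10.68, 12.18, 11.40, 11.27 and 11.86 at 35 °C. After the shift the strains formed a wide series, with cdc53-1 lowest (change of -0.57), skp1-11 and cdc4-3 between, and skp1-25 (0.53) and cdc34-3 (0.72) highest.

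The securin and separase genes shared this order only in part. PDS1 was at 10.36, 10.39, 10.17, 10.36 and 10.001 at RT in cdc53-1, cdc34-3, cdc4-3, skp1-11 and skp1-25, and at 9.39, 10.88, 10.23, 10.25 and 10.48 at 35 °C. It was 1.97-fold lower at 35 °C in cdc53-1 (change of -0.98), and higher in cdc34-3 (0.49) and skp1-25 (0.48). ESP1 was at 10.75, 10.92, 10.77, 10.61 and 10.79 at RT and at 10.44, 11.36, 10.58, 10.77 and 11.23 at 35 °C. The separase gene was lower at 35 °C in cdc53-1 (-0.32) and cdc4-3 (-0.19) and higher in cdc34-3 (0.44) and skp1-25 (0.44).

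The 2 skp1 alleles could be set side by side for these genes, with 1 pair of arrays each and no test. PDS1 had changes of -0.11 in skp1-11 and 0.48 in skp1-25, PDS5 of 0.06 and 0.53, and ESP1 of 0.16 and 0.44. SMC1 went the other way, with 0.31 in skp1-11 and -0.002 in skp1-25. MCD1, SMC3, IRR1, ECO1, SCC2 and SCC4 differed between the alleles by less than any of these. The 4 genes were singled out after their values were seen.

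**Figure D2:**
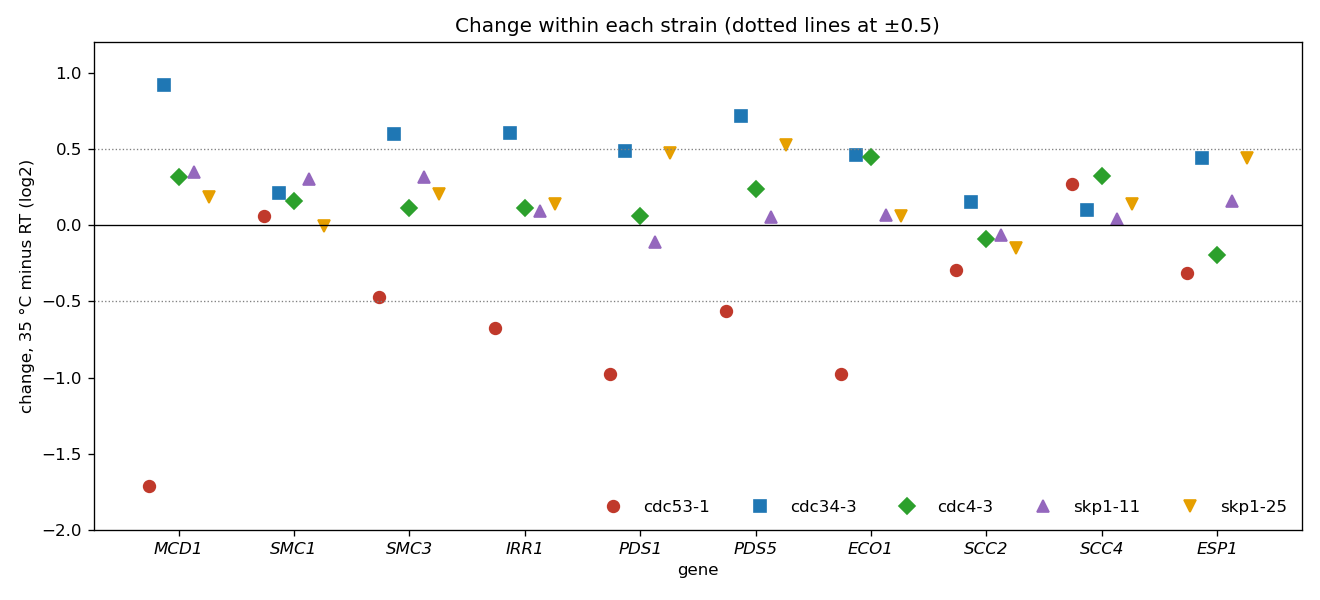
Change from RT to 35 °C (log2, vertical axis) of each gene (horizontal axis) in each of the 5 strains, with 1 point per pair of arrays and dotted lines at 0.5 above and below 0. The cdc53-1 point is the lowest for 8 of 10 genes, all but SMC1 and SCC4, and the cdc34-3 point is the highest for 8 of 10.

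Counted over the set, cdc53-1 and cdc34-3 stood at opposite ends. In cdc53-1, 8 of 10 genes were lower at 35 °C (50.2% of all genes), and 8 of 10 had their lowest change of the 5 strains there (29.9% of all genes). In cdc34-3, 10 of 10 were higher at 35 °C (58.1% of all genes), and 8 of 10 had their highest change there (22.6% of all genes). The same 8 genes, all but SMC1 and SCC4, met both conditions, as 10.1% of all genes did. The count for cdc34-3 was 6 after quantile normalization and 6 after median centring, because PDS1 and ESP1 then had their highest change in skp1-25. As deposited, 0 of 10 had their highest change in cdc53-1 (13% of all genes). Leaving out cdc53-1 therefore could not alter the count of 8, and the share of all genes was then 24.8%. In cdc4-3, skp1-11 and skp1-25, 8 of 10 were higher at 35 °C in each, against 63.6%, 63.7% and 52.6% of all genes. These counts were 6, 4 and 8 after quantile normalization and 5, 4 and 8 after median centring, while in cdc34-3 10 of 10 stayed higher and in cdc53-1 8 of 10 stayed lower under both.

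A change of at least 0.5 log2 units within a strain was reached by few genes outside these 2 strains. In cdc53-1, MCD1, PDS1, ECO1, IRR1 and PDS5 (5 of 10) were lower by that much, against 7.84% of all genes, and 0 of 10 were higher (11.5%). In cdc34-3, MCD1, PDS5, IRR1 and SMC3 (4 of 10) were higher, against 13.6% of all genes, and 0 of 10 were lower (5.16%). In skp1-25 only PDS5 was higher (8.2% of all genes; its change was 0.48 after median centring) and 0 were lower (5.41%). In cdc4-3 the counts were 0 higher (15.1%) and 0 lower (4.97%), and in skp1-11 they were 0 higher (13.2%) and 0 lower (3.21%). The cdc53-1 level at 35 °C lay below all 5 RT levels for 8 of 10 genes (31.3% of all genes), and the cdc34-3 level at 35 °C lay above all 5 for 8 of 10 (35.3%). MCD1, SMC3, IRR1, PDS5 and ECO1 (5 of 10) were lower in cdc53-1 and higher in each of the other 4 strains, which held for 6.15% of all genes. After quantile normalization or median centring this held for 1 of 10, MCD1, because small positive changes of the other 4 genes in cdc4-3 or skp1-11 became negative. Each pair of arrays has no replicate, so these counts carry no test, and genes of 1 array pair share that pair.

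The first test asked whether the genes differed between temperatures over the 5 strains, with strain as a block. limma called 0 of 10 higher at 35 °C (13% of all genes) and 0 of 10 lower (4.61%), at an adjusted p under 0.05 with Benjamini-Hochberg adjustment over 5449 genes. Of all called genes 73.8% were higher, a share that was 47.9% after quantile normalization and 51.0% after median centring, with 0 cohesion genes called in each. At an unadjusted p under 0.05, 1 of 10 passed (SCC4), fewer than the 34.2% of all genes that did. Its mean was 9.93 ± 0.13 at RT and 10.11 ± 0.20 at 35 °C (SD, n = 5 each), a difference of 0.18 ± 0.12 that was higher in 5 of 5 strains (limma adjusted p = 0.12). SMC1 differed by 0.15 ± 0.12 (SD, n = 5; limma adjusted p = 0.181). MCD1 differed by 0.01 ± 1.00 (95% confidence interval from -0.84 to 0.86; limma adjusted p = 0.988), a mean in which a large negative change in cdc53-1 and positive changes in the other 4 strains offset each other. ECO1 (0.01 ± 0.59), PDS1 (-0.01 ± 0.60) and IRR1 (0.05 ± 0.46) also had means near 0 with a wide spread, and the means of MCD1, ECO1 and IRR1 lay below 0 after quantile normalization or median centring. SMC3, PDS5, ESP1 and SCC2 differed by 0.15 ± 0.40, 0.20 ± 0.50, 0.11 ± 0.35 and -0.09 ± 0.16.

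Leaving out cdc53-1 narrowed the spread of the change for 8 of 10 genes, all but SMC1 and SCC4. These are the 8 genes with their lowest change in cdc53-1 (29.9% of all genes). Removing an end value tends to narrow a spread, so this is not a separate result. Without cdc53-1, MCD1 differed by 0.44 ± 0.33 (SD, n = 4; limma adjusted p = 0.0864) and was higher in 4 of 4 strains. PDS5 differed by 0.39 ± 0.29 (adjusted p = 0.0976) and SMC3 by 0.31 ± 0.21 (adjusted p = 0.1), each higher in 4 of 4 strains by limma's fit. Even so, 0 of 10 genes were called higher (9.43% of all genes) or lower (2.28%) in that fit.

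The second test asked whether the change in 1 strain differed from the mean change in the other 4, with the single change taken to have the same variance as the rest. For cdc53-1 minus the others, MCD1 differed by -2.15 log2 units (95% confidence interval from -2.89 to -1.41; limma adjusted p = 0.298). ECO1 differed by -1.24 (from -1.81 to -0.66; limma adjusted p = 0.298) and PDS1 by -1.21 (from -1.90 to -0.51; limma adjusted p = 0.351). For PDS5, IRR1 and SMC3 the differences were -0.95, -0.91 and -0.78 (limma adjusted p = 0.405, 0.363 and 0.403). ESP1 (-0.53), SCC2 (-0.25), SMC1 (-0.11) and SCC4 (0.12) had intervals that held 0.

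No gene of the array passed the adjusted threshold in this contrast. In simulated data the contrast recovered 0% of changes of 0.5 log2 units, 19.6% of changes of 1 and 71% of changes of 2. The simulated noise of each gene was set by the SD of its 5 real changes, the cdc53-1 change among them. For MCD1 that SD was 1.00, against 0.33 without cdc53-1, so the noise was wider than the spread the contrast used. The simulation therefore cannot say how often the contrast misses a change in such genes. A lack of calls with 1 strain against 4 does not show a lack of difference. limma called 0 of 5449 (0%), with a smallest adjusted p of 0.298, so 0 of 10 cohesion genes were called. At an unadjusted p under 0.05, 6 of 10 were lower in cdc53-1 (MCD1, ECO1, PDS1, IRR1, SMC3 and PDS5), against 6.18% of all genes.

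**Figure D3:**
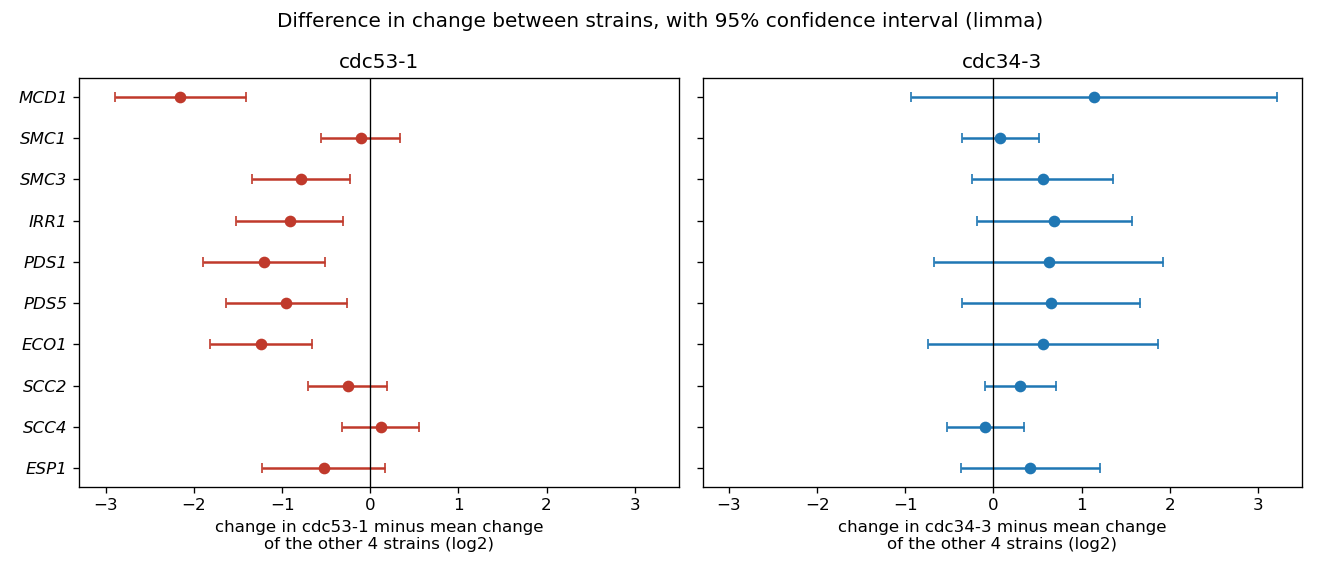
Difference between the change in 1 strain and the mean change in the other 4 (log2, horizontal axis) for each gene (vertical axis), with limma's 95% confidence interval as bars; cdc53-1 on the left and cdc34-3 on the right. On the left the intervals of 6 genes lie wholly below 0, from MCD1 (-2.15) to SMC3 (-0.78), and on the right all 10 intervals hold 0.

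For cdc34-3 the differences from the other 4 strains were positive for 9 of 10 genes, against 50% of all genes. limma called 0% of all genes in this contrast, and so 0 of 10 here. MCD1 differed by 1.14 (from -0.94 to 3.22; limma adjusted p = 0.776), IRR1 by 0.69, PDS5 by 0.65, PDS1 by 0.63, ECO1 by 0.56 and SMC3 by 0.56. That comparison group holds cdc53-1. Without cdc53-1 the differences were 0.64 for MCD1, 0.49 for IRR1, 0.44 for PDS5, 0.39 for SMC3, 0.35 for PDS1 and 0.27 for ECO1 (limma adjusted p from 0.639 to 0.855). At an unadjusted p under 0.05, 0 of 10 passed, against 3.45% of all genes that were higher in cdc34-3.

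The contrasts of cdc4-3, skp1-11 and skp1-25 against the other 4 strains, and of both skp1 alleles against the other 3, called 0 of 10 cohesion genes and 0% of all genes. At an unadjusted p under 0.05 they held 0 of 10, against 3.62%, 3.98%, 4.17% and 3.08% of all genes. The third test, of level differences between the 5 strains over both temperatures, also called 0 of 10, against 8.75% of all genes by limma's F test. That test took the 2 arrays of a strain as its repeats, so changes that differed between strains counted as error. For genes such as MCD1 (changes from -1.71 to 0.92) the lack of a call therefore does not show equal levels. The lowest p among the members was that of SCC4 (limma adjusted p = 0.159), whose strain terms spanned 0.39 log2 units.

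Other genes of the cohesion cycle were placed beside the set. The kleisin that replaces Mcd1 in meiosis, REC8, rose from a mean level of 6.16 to 7.17 at 35 °C, by 1.01 ± 0.75 (SD, n = 5; limma adjusted p = 0.0458), with changes from 0.01 (skp1-25) to 2.11 (skp1-11) and 0.82 for the cdc53-1 pair. Its call was lost without cdc53-1, cdc34-3, cdc4-3 or skp1-11 (limma adjusted p = 0.0806, 0.0995, 0.137 and 0.0785) and after quantile normalization, where the difference was 0.58 (adjusted p = 0.157). Its mean level at RT lay between those of the alpha-specific genes MF(ALPHA)2 (6.05) and STE3 (6.415). The values used here do not show whether its probe was above background. RAD61, whose product helps release cohesin, differed by 0.21 ± 0.19, and HOS1, which deacetylates Smc3, by -0.10 ± 0.24. SGO1, the shugoshin gene, had changes of -0.66 in cdc53-1 and 0.68 in skp1-25, the 2 ends of its range.

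Of 8 fork genes with a role in establishing cohesion, 0 were called higher (13% of all genes) or lower (4.61%). The largest mean differences were those of CTF8 (0.24), CSM3 (0.21) and CHL1 (-0.15). In cdc53-1 the median change of the 8 genes was -0.38, and 6 of 8 had their lowest change there (29.9% of all genes). Condensin, the related ring that compacts chromosomes, had 0 of 5 genes called higher (13% of all genes) or lower (4.61%). The level of BRN1 was low (means of 5.50 at RT and 5.401 at 35 °C). In cdc53-1 the changes were -0.10 for SMC2, -0.11 for SMC4, -0.57 for BRN1, -0.44 for YCS4 and -0.49 for YCG1. In cdc34-3 they were 0.33, 0.29, 0.21, 0.28 and 0.32 in the same gene order, and in skp1-25 they were 0.30, 0.33, 0.03, 0.33 and 0.33. The condensin genes other than BRN1 thus had similar changes in cdc34-3 and skp1-25, the 2 strains with the highest changes of PDS1, PDS5 and ESP1.

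The third ring, Smc5/6, had 2 of 8 genes called higher (13% of all genes) and 0 lower (4.61%). Its SUMO ligase gene MMS21 rose by 1.29 ± 0.48 (limma adjusted p = 0.00766). The mean RT level of MMS21, 6.88, was low beside the array medians (10.96 to 11.13). KRE29, a further subunit, rose by 0.62 ± 0.16 (limma adjusted p = 0.00669), while SMC6 differed by 0.39 ± 0.29 (adjusted p = 0.0628 in limma's fit). MMS21 was higher in 5 of 5 strains, by 1.45 in cdc53-1, and the median of the 8 genes in that strain was -0.09.

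The machinery that destroys securin had 2 of 15 genes called higher (13% of all genes) and 2 of 15 called lower (4.61% of all genes). CDC20, the activator that targets Pds1, fell in all 5 strains, from a mean level of 10.45 to 9.38, by 1.07 ± 0.17 (SD, n = 5; limma adjusted p = 0.00196). Its change was -0.96 in cdc53-1 and -1.05 in cdc34-3, where the PDS1 transcript had changes of -0.98 and 0.49. A link between the 2 transcripts was not tested. APC4 fell by 0.60 ± 0.25 (limma adjusted p = 0.0123), CDC26 rose by 0.49 ± 0.33 (limma adjusted p = 0.0434), and APC9, named after its value was seen, rose by 0.32 ± 0.19 (limma adjusted p = 0.0476). CDC26 missed the threshold without cdc34-3, cdc4-3, skp1-11 or skp1-25 (limma adjusted p = 0.0992, 0.122, 0.12 and 0.0917). APC9 missed it without cdc53-1, cdc4-3, skp1-11 or skp1-25 (limma adjusted p = 0.11, 0.118, 0.113 and 0.12).

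Of 6 spindle checkpoint genes, which hold back Cdc20, 1 was called higher (13% of all genes) and 0 lower (4.61%). MAD2 rose by 0.33 ± 0.14 (limma adjusted p = 0.0273), while BUB3 and BUB1 had differences of -0.27 ± 0.56 and 0.24 ± 0.42. BUB3 had changes of -1.11 in cdc53-1 and 0.45 in cdc34-3. The MAD2 call was lost without cdc53-1, cdc4-3, skp1-11 or skp1-25 (limma adjusted p = 0.0537, 0.0922, 0.0832 and 0.0795). Of 8 genes of early anaphase release, 1 was called higher and 1 lower, against 13% and 4.61% of all genes. The polo kinase gene CDC5, whose product phosphorylates Mcd1, fell by 0.79 ± 0.33 (limma adjusted p = 0.0113). SLK19, a partner of separase, rose by 0.34 ± 0.19 (limma adjusted p = 0.037) and missed the threshold whichever strain was left out (adjusted p from 0.056 to 0.102 in limma's fits). ZDS1 differed by 0.28 ± 0.20.

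Genes of the G1/S programme and histones were lower in cdc53-1 by their medians, as the cohesion genes were. The 28 measured G1/S genes, none of which is a cohesion gene, had median changes of -1.06, 0.52, 0.19, 0.07 and -0.004 for cdc53-1, cdc34-3, cdc4-3, skp1-11 and skp1-25. The median of the 10 cohesion genes was -0.52, 0.48, 0.14, 0.08 and 0.16 in that order, and the median of all genes was -0.002, 0.06, 0.10, 0.10 and 0.02. In cdc53-1, 23 of 28 G1/S genes were lower by at least 0.5, against 7.84% of all genes. TOS4, HCM1 and CDC9, which had the largest mean differences of that list, had changes of -2.01, -1.27 and -0.81 there. For 21 of 28 G1/S genes the highest change was in cdc34-3 (22.6% of all genes). The 7 measured core histone genes had medians of -0.65 in cdc53-1, 0.22 in cdc34-3 and 0.28 in skp1-25. Of these, 1 of 7 had its highest change in cdc34-3, near the 22.6% of all genes. In cdc53-1 they differed in size, with HTB2 at -1.98, HHF1 at -0.85 and HHT1 at -0.70. In the test between temperatures limma called 0 of 28 genes in the first list and 0 of 7 in the second. Of all genes, 13% were called higher and 4.61% lower. Cell cycle stage was not measured, and its part in the changes of the cohesion genes was not tested.

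**Figure D4:**
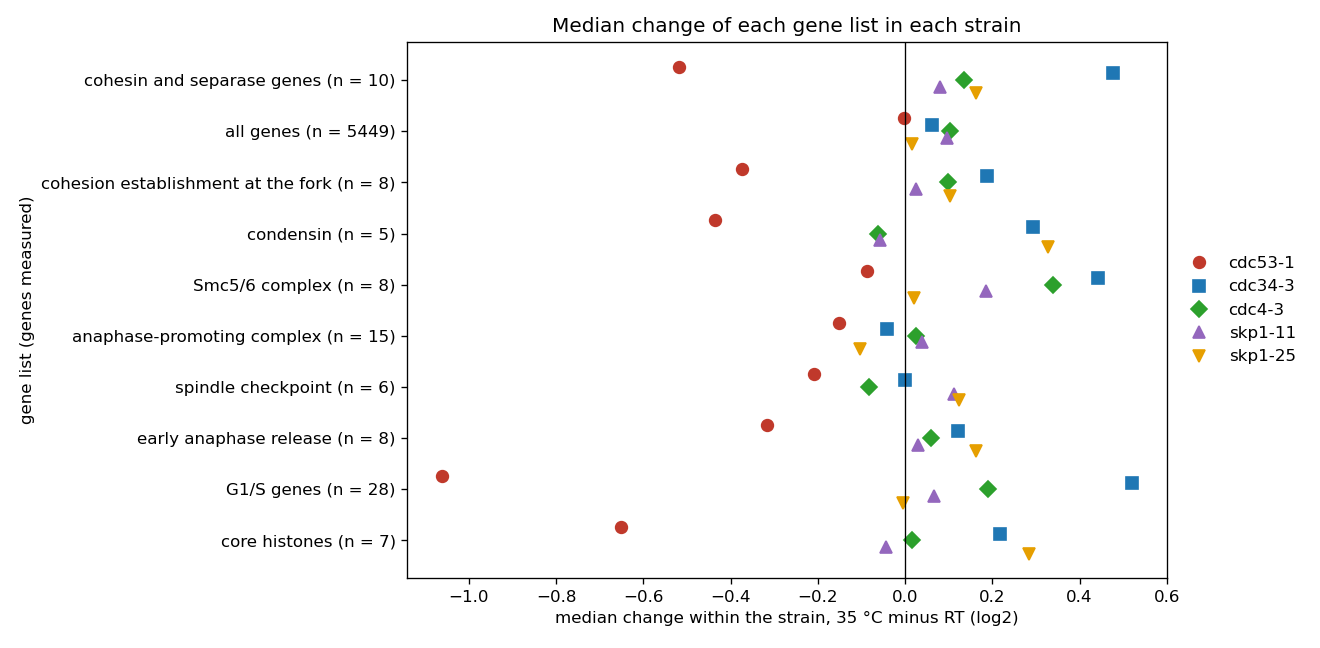
Median change from RT to 35 °C (log2, horizontal axis) of the cohesion genes, of all genes and of 8 other gene lists (vertical axis, with the number of genes measured), 1 point per strain. The cdc53-1 point is the lowest in each list and in the median of all genes, from -1.06 for G1/S genes to -0.09 for the Smc5/6 complex among the lists.

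Genes with a pattern like that of MCD1 and ECO1, the 2 members with the largest SD over the arrays, were sought among the 5448 others. Likeness was the root mean square difference between levels over the 10 arrays, with each gene centred on its own mean. Closest to MCD1 were SVS1 (0.161), RNR1 (0.166), YOX1 (0.181), TOS6 (0.184) and POL30 (0.194). RNR1 encodes a ribonucleotide reductase subunit, YOX1 a cell cycle repressor and POL30 the sliding clamp. Their changes in cdc53-1 ran from -1.76 (YOX1) to -1.21 (POL30). Of the other cohesion genes, ECO1 ranked 22 in likeness to MCD1, IRR1 31, PDS1 35, PDS5 66 and SMC3 110, whereas ESP1 ranked 296, SMC1 717, SCC2 941 and SCC4 3881. Closest to ECO1 were CDC45 (0.120), SLD2 (0.141), GIN4 (0.155), SPT21 (0.160) and the cohesin gene IRR1 (0.161), and CDC45 and SLD2 act in replication initiation. In likeness to ECO1, SMC3 ranked 14, PDS1 15, PDS5 224, MCD1 233, SMC1 455, ESP1 821, SCC2 896 and SCC4 3540. Both lists of closest genes rested on cdc53-1. Without its 2 arrays, 1 of the 5 genes closest to MCD1 (RNR1) and 0 of the 5 closest to ECO1 were the same.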

How the data were processed

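The authors' deposited values are log2 signals per probe set from Affymetrix arrays hybridised with biotin-labelled cRNA, per the labels' protocols. The log2 scale was inferred from the range of the values. How background, normalization, probe summary and filters were handled was not given in the sources used here. Of 5716 probe sets, 5498 had 1 gene symbol in the platform annotation, 0 had several and 218 were unnamed and not used. Symbols were updated with RefSeq's R64 gene table (12 changed), and the probe set with the highest mean was kept for each gene, which left 5449 genes. No array value was refiltered or rescaled for the main results.

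Linear models were fitted with limma 3.58.1 (lmFit, eBayes) in R 4.3.3 over all genes, with Benjamini-Hochberg adjustment and a two-sided threshold of 0.05. The temperature fit had strain as a block (4 residual degrees of freedom). Strain labels pair the arrays. After subtracting each temperature's mean, arrays correlated over genes at 0.428 to 0.768 within a strain, and at most at 0.115 between strains. Subtracting a mean over the strains lowers the values between strains by itself, so this gap is partly built in. Contrasts between strains were fitted on the 5 within-strain changes, and strain levels with temperature as a covariate. The fits were tested on simulated data before use.

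The cohesion genes, the gene lists and the naming rule (all cohesion genes, the 3 largest mean differences of each other list with small lists in full, and the 5 most alike genes) were chosen with earlier results of these data known. Alternatives were quantile normalization, median centring, a low-signal filter, the mean of probe sets, an intensity trend, no strain block and leaving out each strain.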

Additional observations from a re-analysis of the deposited data

Results flagged for a closer look

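In groups of 5 values, the gap of the outermost value to its neighbour was set against the range of the group (Dixon's critical value 0.71), for the changes and for the levels at each temperature of the 10 genes. Of 30 such groups, 3 passed, and chance alone would pass about 1 in 20. The change of MCD1 in cdc53-1 (-1.71) and the change of ECO1 in cdc53-1 (-0.98) stood apart from the other 4 strains. The RT level of MCD1 in cdc34-3 (11.54) stood apart from 4 strains that lay between 11.34 and 11.39. This last gap is small in size, since the other levels were nearly equal.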

How the results depend on the processing

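No cohesion gene that was tested was called in any of the comparisons under any alternative run (quantile normalization, median centring, the low-signal filter, probe set means, the intensity trend, no strain block, each strain left out). The filter removed ECO1 and SCC4, which then had no value. The adjusted p of the temperature difference ran from 0.0864 to 1 over the genes and alternatives, that of the cdc53-1 contrast from 0.143 to 1, and that of the cdc34-3 contrast from 0.637 to 0.984. Leaving out cdc53-1 in its own contrast gave no value. Mean differences near 0 changed sign. After quantile normalization and median centring, MCD1 differed between temperatures by -0.065 and -0.063, ECO1 by -0.12 and -0.06, and IRR1 by -0.001 and -0.02. With 1 strain left out, MCD1 ranged from -0.22 to 0.44, ECO1 from -0.10 to 0.26, IRR1 from -0.083 to 0.24 and PDS1 from -0.14 to 0.23; the highest value of each was the one without cdc53-1. Over all genes, 706 were called higher and 251 lower at 35 °C. The lower calls were 530 after quantile normalization and 503 after median centring. With no strain block the counts were 282 higher and 67 lower, and 0 cohesion genes were called. With 1 strain left out, 291 to 527 were higher and 80 to 136 lower. Level differences between strains were called for 477 genes, and for 162 to 459 with 1 strain left out. The calls of APC4 (adjusted p = 0.0509), CDC5 (0.0669), MAD2, CDC26, APC9 and REC8 were lost without the block in limma's fit, those of APC9, SLK19 and REC8 under both rescalings, and that of CDC26 after median centring (0.0509). That of APC9 was also lost with the intensity trend (0.0572). The low-signal filter left REC8, MMS21, KRE29, CDC20, APC4, APC9 and CDC26 untested. Both rescalings moved the median change of all genes by over 0.1 in cdc4-3 (by -0.133 and -0.124) and skp1-11 (by -0.132 and -0.108), and small positive changes of SMC3 and PDS1 in cdc4-3, of IRR1, PDS5, ECO1 and SCC4 in skp1-11, and under median centring of IRR1 in cdc4-3, became negative. The counts of genes past 0.5 in cdc53-1 and cdc34-3 were 5 and 4 after quantile normalization and 6 and 4 after median centring. The comparison of likeness without the cdc53-1 arrays was chosen after seeing the data, as were the counts without that strain. Every strain and temperature rests on 1 array.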
